A study of Monodelphis domestica with 2 samples.

Results

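IT_D was the rarest of the 4 intratelencephalic (IT) subclasses among the nuclei that were sequenced from opossum primary visual cortex (V1). The species was the gray short-tailed opossum (Monodelphis domestica). The members of IT_D were all nuclei with the deposited subclass label IT_D, 373 of the 32764 labelled nuclei and of the 20150 glutamatergic ones. They were compared with the 19777 glutamatergic nuclei that carried another subclass, namely IT_A, IT_B, IT_C, L5PT, L5NP, L6CT and L6b. The tissue came from 2 adult males from a university colony, aged 1.5 years (animal 1) and 2 years (animal 2). V1 of both hemispheres was pooled by animal, the Draq5-stained nuclei were sorted, and each suspension was split over 2 droplet libraries (1A and 1B, 2A and 2B). A different experimenter handled each animal, so animal, age and handling cannot be told apart, and the libraries of an animal count as 1 replicate. Library totals ran from 55625042 to 69706055 unique molecular identifiers (UMIs, each standing for 1 captured RNA molecule). The IT_D nuclei summed to 568307 UMIs in animal 1 and 2949941 in animal 2, beside 78616372 and 95795437 in the other glutamatergic nuclei. No 2 libraries shared a barcode among their IT_D nuclei, and 2 IT_D barcodes recurred among other nuclei of another library.

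IT neurons are the cortical excitatory cells whose axons stay within the telencephalon, reaching other cortical areas, the opposite hemisphere and the striatum. L5PT (pyramidal tract) and L6CT (corticothalamic) neurons project instead below the cortex, and L5NP (near-projecting) and L6b are further deep-layer classes. In mice IT neurons are sorted by layer with genes such as CUX2 in the upper layers and RORB in layer 4. A separate set of genes, among them NR4A2, GNB4, NTNG2 and SMIM32, is known from neurons of the claustrum and from the Car3-type IT neurons of the deep cortex. IT_D was delineated by clustering the same expression values that are described here. Differences between IT_D and other nuclei are therefore given as sizes with their spread over the 2 animals, and without p-values.

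IT_D nuclei were much rarer in animal 1 than in animal 2. They numbered 24 of 3232 IT nuclei in library 1A and 34 of 3102 in library 1B, then 127 of 3365 in library 2A and 188 of 4763 in library 2B. The shares were 0.743% (exact Clopper-Pearson 95% interval 0.476 to 1.10%), 1.10% (0.760 to 1.53%), 3.77% (3.16 to 4.47%) and 3.95% (3.41 to 4.54%). Both libraries of animal 1 lay below both of animal 2 and the intervals did not overlap between animals, although such intervals cover counting error only. Per animal the share was 0.916% and 3.88%, a mean of 2.40% ± 2.09 (SD, n = 2 animals). The libraries of 1 animal did not differ detectably in a two-sided Fisher's exact test, with p = 0.148 (adjusted over 2 tests, 0.297) for animal 1 and p = 0.726 (adjusted 0.726) for animal 2. Of all glutamatergic nuclei IT_D made up 0.638% and 2.85%, a ratio of 4.46 between the animals, while that ratio ran from 0.580 for L5NP to 1.06 for IT_A in the other 7 subclasses. With 1 animal on each side the difference has no replicate check.

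Single nuclei of IT_D held several of its most raised genes together. Of the 16 named genes with the largest rises in IT_D (below), an IT_D nucleus held a median of 8 with at least 1 UMI in each animal. At least 5 of them were held by 51 of the 58 IT_D nuclei of animal 1 and by 280 of the 315 of animal 2. Among the other glutamatergic nuclei, 18 of 9027 in animal 1 and 57 of 10750 in animal 2 reached 5. The 16 genes were chosen on the labelled nuclei, so these counts follow from the label and are no separate measure of its share, and the number of 5 was chosen after the values were seen. IT_D nuclei were not shallower than the others, with a median of 9990.5 UMIs in animal 1 and 8601 in animal 2, beside 8112 and 8048.5 in the other glutamatergic nuclei. The median Scrublet doublet score was 0.103 in the IT_D nuclei of animal 1, 0.0575 in those of animal 2 and 0.0502 and 0.0535 in the other glutamatergic nuclei, and its part in the share was not tested. The doublet call marked 0 of 58 and 12 of 315 IT_D nuclei.

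**Figure D1:**
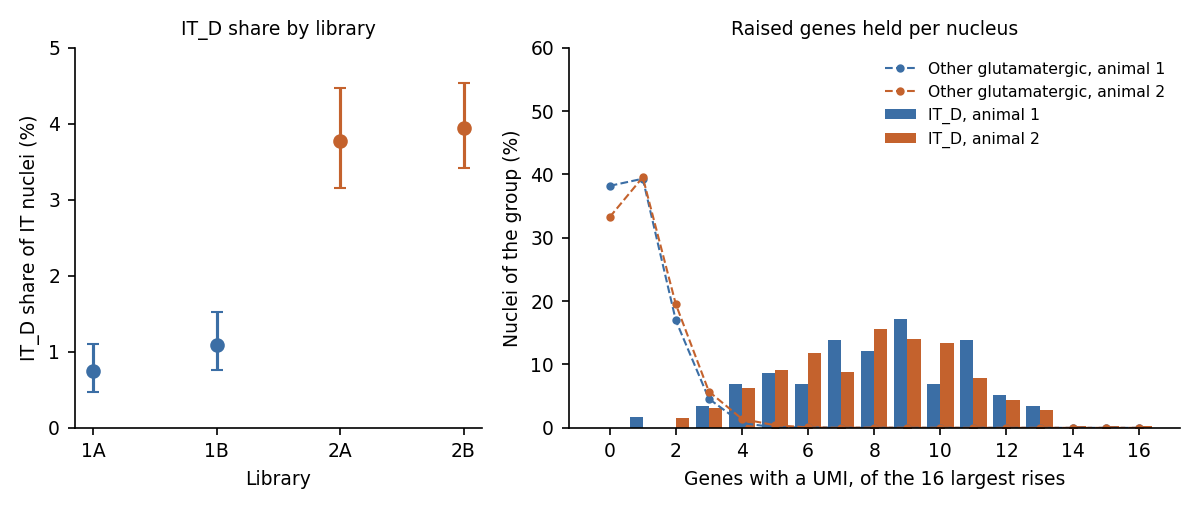
Left, IT_D share of IT nuclei in percent for each library, with the exact 95% interval of the count. Right, percentage of nuclei (vertical axis) by the number of the 16 most raised genes with at least 1 UMI (horizontal axis), as bars for IT_D and dashed lines for the other glutamatergic nuclei of each animal. Libraries 1A and 1B lie at 0.743 and 1.10%, libraries 2A and 2B at 3.77 and 3.95%, and the distributions of IT_D nuclei centre on 8 genes in both animals.

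The label was first checked against cell class markers. SV2B, a synaptic vesicle protein of glutamatergic neurons, was at 961 and 757 CPM in the IT_D nuclei of animals 1 and 2 and 890.3 and 871 CPM in their other glutamatergic nuclei, where CPM are UMIs of the gene per 1000000 UMIs of the summed nuclei. The ranges of these levels overlapped over the animals. Of the GABAergic markers, GAD1 was at 1.76 and 3.73 CPM, GAD2 at 5.28 and 4.07 CPM and SLC32A1 at 0 and 1.02 CPM, and the 6 named members of that list summed to 7.04 and 18.3 CPM in IT_D beside 15.7 and 18.9 CPM in the other glutamatergic nuclei. Microglial (4 members, 1.76 and 1.69 CPM) and oligodendrocyte precursor genes (3 members, 1.76 and 3.73 CPM) were near 0, and the oligodendrocyte list (61.6 and 83.4 CPM) lay below its level elsewhere (94.4 and 93.3 CPM). The 5 astrocyte genes summed to 329 and 465 CPM in IT_D and 269 and 313 CPM elsewhere, above the others in both animals. IT_D thus carried SV2B at the level of glutamatergic neurons, while the defining genes of GABAergic neurons and microglia were near 0.

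CUX2, the marker given for IT_D, was high in these nuclei without setting them apart from IT_A and IT_B. It was at 503, 465, 697 and 665 CPM in libraries 1A, 1B, 2A and 2B. In animals 1 and 2 this gave 482 and 679 CPM, beside 362 and 490.2 CPM in IT_A, 343 and 531 CPM in IT_B and 522 and 583 CPM in the Sst interneurons. IT_D was above IT_A and IT_B within each animal, and its range over the animals overlapped those of IT_A, IT_B and Sst, so it cannot be ordered against them beyond that spread. Sst lay above IT_A in both animals. IT_C was far lower at 22.2 and 41.6 CPM. Against all other glutamatergic nuclei CUX2 was 2.24- and 2.02-fold higher in the 2 animals, but against IT_A, IT_B and IT_C summed the mean log2 difference was 0.67, under the 2-fold required. A CUX2 UMI was present in 84.5% (95% interval 72.6 to 92.7%) of IT_D nuclei in animal 1 and 88.3% (95% interval 84.2 to 91.6%) in animal 2. In IT_A the shares were 79.4% and 85.5%. Oligodendrocytes, which should lack the gene, showed 3.64% and 6.51% at a median of 1917 UMIs. With every nucleus thinned to 2000 UMIs, which left out 4 IT_D nuclei, the shares were 44.6% and 66.5% in IT_D against 46.7% and 55.2% in IT_A, and the order of these subclasses differed between the animals. Oligodendrocytes at that depth had 3.46% and 6.20%, so the share in IT_D was above the level that free RNA gave.

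To find what set IT_D apart, the IT_D sum and the sum of the other glutamatergic nuclei were compared within each animal. A gene counted as higher or lower when its CPM differed at least 2-fold in both animals, with at least 20 CPM and 10 UMIs in the higher group. Of 6162 genes with enough UMIs, 212 were higher in IT_D (3.44%) and 412 lower (6.69%), and the median difference over all 6162 was -0.04 on the log2 scale. A symbol was given for 137 of the higher and 255 of the lower genes. All 4 IT_D libraries lay above all 4 libraries of the other nuclei for 210 of the 212 higher genes, and below them for 405 of the 412 lower genes. The genes were chosen on sums of these same libraries, so such separation largely follows from the choice. Against IT_A to IT_C alone and against L5PT, L5NP, L6CT and L6b alone, 151 of the 212 higher genes passed both times, 37 passed only against the IT subclasses and 24 only against the others. For the lower genes these counts were 192, 123 and 97 of 412. When the rule asked for 2-fold over each of the other 7 glutamatergic subclasses in both animals, 81 of 7257 genes passed (1.12%), 46 of them with a symbol. A further description took all 18 subclasses, in which IT_D had the highest level of 90 of the 212 genes in both animals. IT_D was the lowest of the 8 glutamatergic subclasses in both animals for 188 of the 412.

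**Figure D2:**
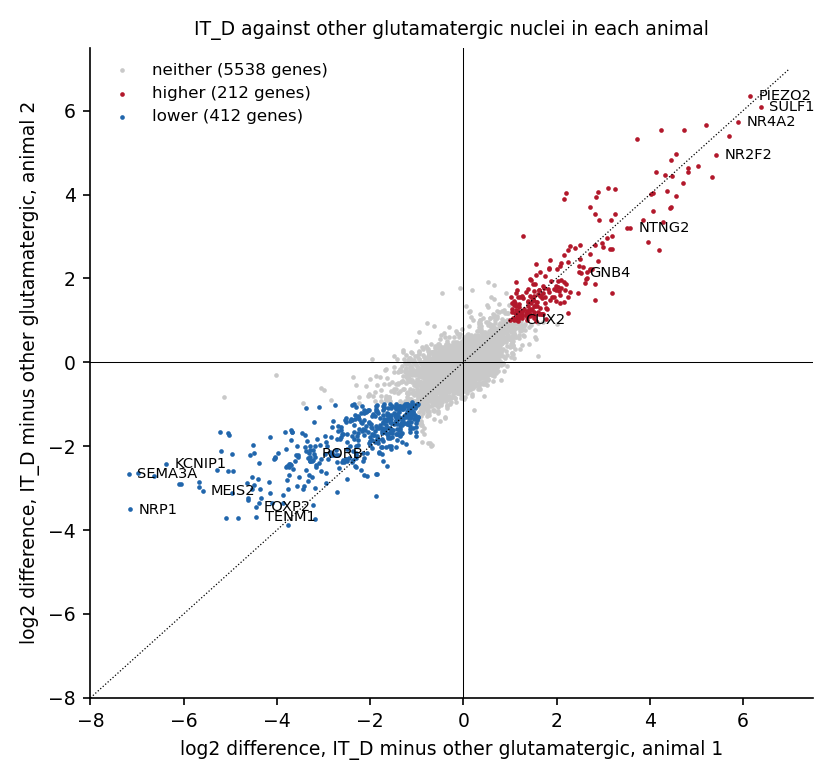
Log2 difference of CPM + 1 between IT_D and the other glutamatergic nuclei in animal 1 (horizontal axis) and animal 2 (vertical axis) for the 6162 genes tested by size, 212 higher in red, 412 lower in blue and 5538 neither in grey. PIEZO2, SULF1 and NR4A2 lie at the upper right near the dotted line of equality, and SEMA3A, NRP1 and KCNIP1 lie far left because animal 1 had 0 UMIs of them in IT_D.

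The largest rise, by the smaller of the log2 differences in the 2 animals, was that of PIEZO2, a mechanically gated ion channel best known from touch and body-position sensing neurons. It was at 1650.4, 1365, 1303 and 1465 CPM in IT_D of libraries 1A, 1B, 2A and 2B and at 19.9 and 16.02 CPM in the other glutamatergic nuclei of animals 1 and 2, which is 74.99- and 86.9-fold higher (log2 difference 6.26 ± 0.14, SD, n = 2). The 4 libraries of IT_D lay close together and far above every other glutamatergic subclass, of which L5NP came next with 298 and 284 CPM. At least 1 PIEZO2 UMI was found in 58 of 58 IT_D nuclei of animal 1 and 308 of 315 of animal 2, against 8.25% and 7.57% of the other glutamatergic nuclei and 1.23% and 1.70% of oligodendrocytes. PIEZO2 was also high outside the class, at 838 and 799 CPM in Lamp5 interneurons, 396 and 367 CPM in microglia and 207 and 374 CPM in Sst interneurons, yet IT_D was the highest of the 18 subclasses.

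SULF1, an extracellular enzyme that trims sulfate groups from heparan sulfate, was next. Its levels were 127, 240.4, 145 and 155 CPM in the 4 libraries and 1.27 and 1.24 CPM in the other glutamatergic nuclei (148- and 121-fold higher, log2 difference 6.23 ± 0.21), and no other glutamatergic subclass exceeded 2.26 CPM in either animal. The members of its list, proteoglycans and enzymes of sulfation, differed in both directions, as GPC3, a heparan sulfate proteoglycan (51.03 and 98.98 CPM against 5.09 and 4.65 CPM), and the chondroitin sulfotransferase CHST11 (538 and 412 CPM against 128 and 134 CPM) were higher too. The sulfotransferases NDST4, NDST3, HS3ST5, CHST8 and CHST9, the related sulfatase SULF2 and the glypican GPC1 were lower. Over the list, 3 of 16 evaluated members were higher (18.8%, beside 3.44% of all genes) and 7 lower (43.8%, beside 6.69%), and SULF1 and GPC3 reached 20 CPM only through IT_D. Without such members 1 of 14 was higher (7.14%, beside 1.82% of all such genes). NDST4 stood at 7.68, 16.2, 5.36 and 12.8 CPM against 124 and 109 CPM, and SULF2 did not pass the rule against the other IT subclasses alone. B3GAT2, which builds the carbohydrate epitope HNK-1, was higher at 507, 481, 440.3 and 466 CPM against 42.5 and 48.2 CPM.

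A list of genes known from the claustrum and from Car3-type neurons was read next. Of 9 listed genes 8 had a symbol in the files, 7 could be evaluated, and 6 were higher and 0 lower, where 3.44% and 6.69% of all genes were. NR4A2, SMIM32, LXN and OPRK1 reached the minimum of 20 CPM in both animals only through IT_D, so they could hardly count as lower. Of the 3 members with that level elsewhere, NTNG2 and GNB4 were higher, where 1.82% of all such genes were. All 6 passed also against IT_A to IT_C alone. NR4A2, an orphan nuclear receptor (NURR1) used as a marker of the claustrum and of deep-layer neurons, was at 138, 133, 180.0 and 177 CPM in IT_D. The other glutamatergic nuclei had 1.28 and 2.36 CPM, so that IT_D was 105- and 75.6-fold higher (log2 difference 5.82 ± 0.11). IT_D stood alone in it, since the next glutamatergic level was 2.41 and 7.08 CPM, in L6CT of animal 1 and L5NP of animal 2. A NR4A2 UMI was seen in 72.4% (95% interval 59.1 to 83.3%) and 72.1% (95% interval 66.8 to 76.9%) of IT_D nuclei, 0.986% and 1.80% of other glutamatergic nuclei, and 0.175% and 0.226% of oligodendrocytes.

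The netrin-G protein NTNG2, a membrane-anchored synaptic organiser, was at 745, 734, 669 and 615 CPM. The other nuclei had 60.7 and 68.7 CPM (log2 difference 3.39 ± 0.27), and IT_C came nearest with 144 and 179 CPM. SMIM32, a small membrane protein, was close to absent elsewhere, at 30.7, 29.2, 19.1 and 24.9 CPM in IT_D against 0.496 and 0.376 CPM. GNB4, a G protein beta subunit, was at 338, 302, 225 and 229 CPM, which compares with 54.5 and 50.9 CPM in the other nuclei and with 74.4 and 87.3 CPM in L6b, the next subclass. GNB4 was present in every other glutamatergic subclass, at 48.6 to 87.3 CPM, and was 5.84- and 4.46-fold higher in IT_D than in their sum. The carboxypeptidase inhibitor LXN was at 26.9, 16.2, 38.3 and 51.1 CPM against 1.97 and 1.80 CPM, and the kappa opioid receptor OPRK1 at 49.9, 71.5, 44.4 and 44.4 CPM against 13.5 and 7.86 CPM. The libraries of animal 1 had as few as 12 LXN UMIs in all, so its level there is coarse. The exception was SYNPR, a synaptic vesicle protein, at 468 and 414 CPM in IT_D and 308 and 279 CPM elsewhere, a difference under 2-fold, with IT_B at the same level (481 and 435 CPM).

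The short list for mouse L6IT neurons had 3 evaluated members, of which SULF1 and OPRK1 were higher and the cadherin CDH9 lower (5.28 and 12.2 CPM against 75.8 and 66.7 CPM). SULF1 and OPRK1 reached 20 CPM only through IT_D, so CDH9 was the 1 member evaluated on its level elsewhere, and 3.44% of all genes were higher and 6.69% lower. Of the mouse layer markers of IT neurons, 5 could be evaluated. Only CUX2 was higher (20%, beside 3.44% of all genes), while RORB, CDH9 and the scaffold gene WHRN were lower (60%, beside 6.69%). RORB, the transcription factor of layer 4, was at 26.9, 42.2, 78.1 and 59.001 CPM against 334 and 309 CPM, with 1344 and 1593 CPM in IT_B. WHRN (7.04 and 14.6 CPM against 35.2 and 31.3 CPM) did not pass the rule when the other IT subclasses alone were taken.

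Genes known from other brain regions were also read. Of the striatal list, 9 members had a symbol and 3 were evaluated, 0 were higher and MEIS2 was lower. The dopamine receptor DRD2 had 0 UMIs in IT_D of both animals, DRD1 was at 19.4 and 9.15 CPM beside 13.2 and 8.53 CPM, and PDE10A was at 614 and 654 CPM beside 902 and 1001 CPM. The hippocampal markers PROX1 and FIBCD1 were at 0 and 0.339 CPM and 0 and 0 CPM, and the thalamic markers TCF7L2 and LEF1 at 1.76 and 3.05 CPM and 0 and 0.339 CPM. SLC17A6, a vesicular glutamate transporter strong in the thalamus, was at 17.6 and 36.6 CPM in IT_D and 25.2 and 24.5 CPM elsewhere. With 3, 1 and 1 evaluated members in these lists and 3.44% of all genes higher and 6.69% lower, their counts show little, and the values stand as a description.

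**Figure D3:**
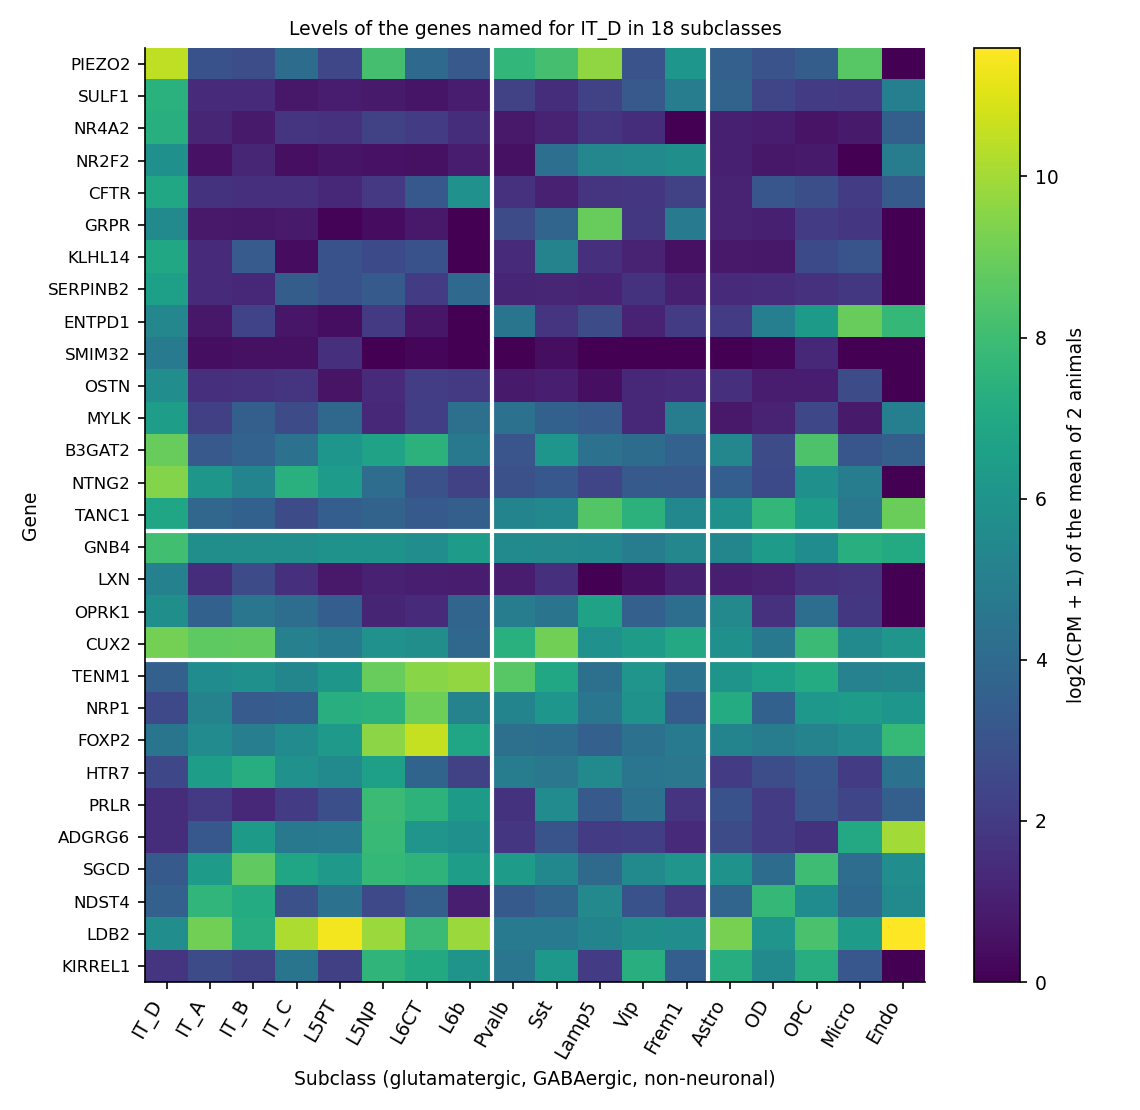
Level of each named gene (rows) in 18 subclasses (columns, glutamatergic, GABAergic and non-neuronal from left to right) as log2(CPM + 1) of the mean of 2 animals. The upper block holds 15 of the 16 largest rises, the middle block other claustrum and Car3-type genes with CUX2, the lower block the 10 largest falls. NR4A2, SULF1 and SMIM32 are bright in the IT_D column alone among glutamatergic subclasses, while CUX2 is bright in IT_D, IT_A, IT_B and Sst.

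The other largest rises were of diverse function. NR2F2, a nuclear receptor best known in cortex from interneurons of the caudal ganglionic eminence, was at 69.1, 55.2, 50.5 and 46.8 CPM in IT_D against 0.458 and 0.616 CPM. Interneurons carried it too, with 46.6 and 43.8 CPM in Vip and 52.6 and 54.2 CPM in Frem1, levels near those of IT_D. The gastrin-releasing peptide receptor GRPR was at 38.4, 35.7, 42.1 and 60.2 CPM against 0.611 and 0.710 CPM, and far higher still in Lamp5 interneurons (457 and 487 CPM). Both receptors were thus shared with GABAergic neurons, whose defining genes GAD1, GAD2 and SLC32A1 were near 0 in IT_D (above).

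The chloride channel gene CFTR was at 111, 127, 106 and 131 CPM in IT_D and 3.28 and 3.84 CPM in the other glutamatergic nuclei, and L6b shared it with 54.5 and 61.5 CPM. KLHL14, an adaptor of the kelch family, was at 223, 120.2, 76.6 and 73.6 CPM against 4.96 and 2.24 CPM. Within IT_D its level was higher in animal 1 than in animal 2, and the other nuclei showed the same order. SERPINB2, a serine protease inhibitor, was at 84.4, 71.5, 91.9 and 118 CPM against 2.89 and 3.89 CPM. OSTN, which encodes the secreted peptide osteocrin, was at 46.1, 32.5, 64.3 and 62.7 CPM against 1.36 and 2.94 CPM. In all 18 subclasses, IT_D was highest for these 4 genes in both animals.

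ENTPD1, an ectoenzyme that hydrolyses extracellular ATP and the usual mark of microglia, was at 34.5, 35.7, 39.8 and 48.7 CPM against 1.06 and 0.971 CPM in the other glutamatergic nuclei. Microglia had 471 and 482 CPM, but the microglial genes CSF1R (1.76 and 0.678 CPM), P2RY12 (0 UMIs) and CX3CR1 (0 and 0.678 CPM) were near 0 in IT_D. The myosin light chain kinase MYLK was at 69.1, 139.7, 67.4 and 71.8 CPM against 5.48 and 4.81 CPM. The scaffold gene TANC1 was at 138, 90.98, 119 and 123 CPM against 11.6 and 10.7 CPM. It was not particular to IT_D outside the glutamatergic class. A TANC1 UMI was present in 79.8% and 81.7% of Lamp5 nuclei and 28.3% and 29.9% of oligodendrocytes, beside 50% and 54.3% of IT_D nuclei. Of the 16 largest rises, 15 were also at least 2-fold over each other glutamatergic subclass in both animals, with CFTR the exception, and 12 were highest in IT_D among the 18 subclasses. Their 4 IT_D libraries lay above all libraries of the other nuclei without exception, which largely follows from their choice on sums of these libraries.

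Among 73 receptors for neuromodulators 17 could be evaluated, of which 7 were higher and 3 lower. Of the 17, 6 passed the minimum of 20 CPM in both animals only through IT_D, and 5 of these were among the 7. The 11 others had 2 higher and 3 lower members and a median log2 difference of -0.18, where 1.82% of all genes with 20 CPM outside IT_D were higher, 7.01% were lower and the median was -0.05. Higher were OPRK1, the adrenergic receptors ADRA2C (47.5 and 35.6 CPM against 7.62 and 7.29 CPM) and ADRA1B (80.9 and 81.7 CPM against 30.9 and 38.3 CPM), and the serotonin receptors HTR1F (24.6 and 22.7 CPM against 5.16 and 6.24 CPM) and HTR4 (38.7 and 55.6 CPM against 13.7 and 13.3 CPM). The nicotinic subunit CHRNA4 (143 and 69.5 CPM against 30.4 and 18.4 CPM) and the neurotensin receptor NTSR1 (229 and 220.3 CPM against 78.5 and 86.1 CPM) were higher as well. NTSR1 marks corticothalamic neurons in mice, and its level in L6CT was 56.7 and 69.1 CPM here. Both L5PT (273 and 231 CPM) and L6b (292 and 222 CPM) were above IT_D in each animal. Lower were the serotonin receptors HTR7 and HTR2A and the orexin receptor HCRTR2. HTR7 stood at 7.68, 0, 3.06 and 7.91 CPM against 76.7 and 68.7 CPM, HTR2A at 8.80 and 9.49 CPM against 34.4 and 30.02 CPM, and HCRTR2 at 17.6 and 42.4 CPM against 168 and 172 CPM. ADRA2C, CHRNA4, HTR1F, HTR4 and OPRK1 were the higher genes that reached 20 CPM only through IT_D, so the serotonin receptors with that level elsewhere were called lower only. In all, 6 of the 7 higher and all 3 lower genes of the list passed against the IT subclasses alone, ADRA1B being the exception.

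Of 4 evaluated metabotropic glutamate receptors 3 were lower in IT_D, where 6.69% of all genes were. GRM3 (23.03, 42.2, 123 and 82.1 CPM against 479 and 569 CPM), GRM4 (38.4, 19.5, 45.9 and 13.99 CPM against 163 and 120.2 CPM) and GRM8 (7.68, 3.25, 7.66 and 7.30 CPM against 66.5 and 64.6 CPM) were at least 2-fold lower in both animals. These 3 belong to the receptors that reduce cyclic AMP. GRM7 was at 871 and 604 CPM against 1589 and 1403 CPM, which fell short of the rule in animal 1. GRM8 did not pass the rule against the IT subclasses alone. Of 34 cyclic nucleotide signalling genes 9 were lower (26.5%, beside 6.69% of all genes) and 1 higher (2.94%, beside 3.44%). Lower were among others the phosphodiesterases PDE5A, PDE7B, PDE9A and PDE11A, the adenylyl cyclases ADCY1 and ADCY8 and the G protein regulators RGS6 and RGS7. Of these, PDE11A did not pass against the IT subclasses alone. The higher member was PRKG2, a kinase driven by cyclic GMP (66.9 and 92.5 CPM against 13.3 and 16.7 CPM), which reached 20 CPM only through IT_D. Among receptors of fast transmission 0 of 12 ionotropic glutamate receptors and 0 of 11 GABA and glycine receptors were higher or lower, near what the shares of all genes give for lists this short, with medians of 0.12 and -0.01 on the log2 scale. Of 20 oxidative phosphorylation genes 0 were higher or lower too.

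Among 37 potassium channel genes 1 was higher (2.70%, beside 3.44% of all genes) and 7 lower (18.9%, beside 6.69%). KCNT1, a sodium-activated channel, was at 473 and 374 CPM against 173 and 158 CPM. KCNH5, a voltage-gated channel of the EAG family, was at 49.9, 77.98, 89.6 and 62.7 CPM against 393 and 377 CPM, and the electrically silent subunits KCNG1 and KCNG2 and the channel-interacting protein KCNIP1 were lower too. KCNG1, KCNIP1 and KCNMB4 did not pass as lower against the IT subclasses alone, where KCNIP1 was at 6.99 and 7.03 CPM in IT_A. Of 12 calcium channel genes 1 was higher (8.33%, beside 3.44% of all genes) and 2 were lower (16.7%, beside 6.69%). The auxiliary subunit CACNA2D3 was higher and the T-type pore CACNA1H lower, neither of them against the IT subclasses alone. CACNA1A, the pore of P/Q-type channels, was lower at 180.4, 286, 302 and 251 CPM against 765 and 871 CPM. The sodium channel subunit SCN3B was the 1 member of 7 sodium and HCN channel genes to differ (14.3%, beside 6.69% of all genes lower), at 12.3 and 8.81 CPM against 26.0 and 25.5 CPM, and it did not pass against the IT subclasses alone.

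Guidance and adhesion genes differed within their families. Teneurins, large transmembrane proteins that pair across synapses, split within their family. TENM1 had the largest fall of a gene with a symbol by the ranking used, at 3.84, 12.997, 13.8 and 11.6 CPM against 212 and 174 CPM, while TENM3 (1128, 1079, 855 and 896 CPM against 246 and 232 CPM) and TENM4 (718, 445, 616 and 635 CPM against 180.1 and 206 CPM) were higher. Of 49 synaptic adhesion genes 13 were lower (26.5%, beside 6.69% of all genes) and 3 higher (6.12%, beside 3.44%), with NCAM1 (91.5 and 132 CPM against 790.1 and 694 CPM) and the neurotrimin gene NTM (394 and 685 CPM against 3297 and 3384 CPM) among the lower. Of 23 cadherins and protocadherins, CDH4 and CDH7 were higher (8.70%, beside 3.44% of all genes). CDH6, CDH8, CDH9, CDH20, FAT4 and PCDH15 were lower (26.1%, beside 6.69%), and all 8 genes passed against the IT subclasses alone.

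The semaphorin receptor NRP1 and its ligand SEMA3A were both lower. NRP1 was at 0, 0, 12.3 and 7.91 CPM in IT_D, with 0 UMIs in both libraries of animal 1, beside 142 and 122 CPM in the other nuclei. With 3 UMIs taken as the limit that a count of 0 allows in animal 1, IT_D was at least 26.8-fold lower there, and it was 12.4-fold lower in animal 2. SEMA3A likewise was at 0, 0, 38.3 and 18.9 CPM against 144 and 179.6 CPM, at least 27.2-fold lower in animal 1 and 6.54-fold lower in animal 2. Of 12 semaphorin, plexin and neuropilin genes 3 were lower (25%, beside 6.69% of all genes) and 0 higher. Among Slit, Robo, netrin and ephrin genes, 3 of 21 were higher (14.3%, beside 3.44% of all genes), namely NTNG2, the ephrin receptor EPHA3 (871, 890.3, 834 and 943 CPM against 158 and 181 CPM) and the netrin receptor UNC5C (1347, 1397, 1341 and 1398 CPM against 417 and 435 CPM). Lower in that list were the ligands SLIT2 and SLIT3 and the receptors EPHB2 and EPHB6, with SLIT3 at 45.7 and 59.7 CPM against 417 and 344 CPM. SLIT3 was lower still in IT_C (36.5 and 29.3 CPM), L5PT (39.1 and 41.1 CPM) and L5NP (25.4 and 22.2 CPM). Of the 8 glutamatergic subclasses it was highest in IT_A (702 and 507 CPM).

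The other largest falls included several genes that were high in L5NP, L6CT and L6b. FOXP2, a transcription factor of L6CT neurons (1554 and 1539 CPM there), was at 15.4, 16.2, 27.6 and 26.8 CPM against 369 and 304 CPM, and the prolactin receptor PRLR at 0, 3.25, 3.06 and 1.22 CPM against 56.6 and 30.2 CPM. The adhesion receptor ADGRG6 (1.76 and 2.03 CPM against 39.4 and 29.8 CPM) and the adhesion molecule KIRREL1 (3.52 and 1.36 CPM against 40.3 and 30.6 CPM) were low as well. Against IT_A to IT_C alone these 4 genes did not pass the rule. The rule also asks for 20 CPM in the higher group, so a gene that missed it can still be lower in IT_D. ADGRG6 was nevertheless at 9.44 and 7.03 CPM in IT_A, 80.5 and 75.5 CPM in IT_B and 22.6 and 27.03 CPM in IT_C, each above IT_D. KIRREL1 was as low in L5PT (3.96 and 3.27 CPM) as in IT_D. Of the 5 evaluated L6CT markers 4 were lower (80%, beside 6.69% of all genes) and none of these passed against the IT subclasses, while NTSR1 was higher (20%, beside 3.44%). LDB2, a cofactor of LIM-domain transcription factors (34.5, 42.2, 91.1 and 38.3 CPM against 808 and 587 CPM), the sarcoglycan SGCD (3.84, 6.50, 21.4 and 4.87 CPM against 152 and 127 CPM), TENM1, NRP1 and HTR7 were lower against both groups.

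Of 36 evaluated transcription factors 11 were lower (30.6%, beside 6.69% of all genes) and 5 higher (13.9%, beside 3.44%), with a median log2 difference of -0.47. NR4A2 and NR2F2 passed the minimum of 20 CPM through IT_D alone. The higher genes were NR4A2, NR2F2, CUX2, the estrogen-related receptor ESRRG (109 and 79.3 CPM against 48.2 and 35.6 CPM) and SOX5 (1522 and 1447 CPM against 709.6 and 640.3 CPM), a factor of deep-layer neurons. MEIS2, a homeobox gene, was lower at 15.4, 3.25, 44.4 and 55.96 CPM against 471 and 431 CPM. TOX (70.4 and 85.4 CPM against 469 and 452 CPM) and TOX3 (8.80 and 13.9 CPM against 115 and 113 CPM), high-mobility-group factors, were lower against the IT subclasses alone too, as were RORB and MEIS2. Of the 11 lower factors 6 did not pass against those subclasses, among them BCL11B of L5PT neurons (59.8 and 117 CPM against 428 and 340.1 CPM) and TLE4 of L6CT neurons (61.4, 45.5, 58.2 and 61.4 CPM against 156 and 144 CPM).

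Of 17 activity-regulated genes with a symbol only 3 could be evaluated, and 2 were higher, where 3.44% of all genes were. SORCS3 did not pass against the IT subclasses alone, with 485 and 659.8 CPM in IT_A. BDNF, a neurotrophin that activity induces, was at 242, 77.98, 168 and 152 CPM against 31.4 and 53.3 CPM, and the sorting receptor SORCS3 at 986, 897, 955 and 1122 CPM against 305 and 471 CPM. The spread of BDNF over the libraries of animal 1 was large, and the other glutamatergic nuclei had more BDNF and SORCS3 in animal 2 than in animal 1. The neuropeptide CCK was at 142, 143, 139 and 154 CPM against 59.3 and 62.5 CPM, but IT_C had a like level (148 and 132 CPM). The calcium-binding CALN1 was higher (882 and 879 CPM against 310.4 and 315 CPM), CALB1 lower (12.3 and 12.5 CPM against 30.9 and 31.9 CPM).

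Secreted and matrix genes differed in both directions. ADAMTSL1, a matrix glycoprotein, was at 645, 663, 502 and 605 CPM against 81.8 and 76.9 CPM, and the proteases ADAMTS9 (42.2 and 50.8 CPM against 7.78 and 15.1 CPM) and ADAMTS15 (36.95 and 34.9 CPM against 13.6 and 13.2 CPM) and the collagen COL8A1 were higher with it. The collagens COL5A1 (15.4, 12.997, 55.1 and 65.7 CPM against 153 and 227 CPM) and COL25A1 and the integrin ITGB8 were lower, which made 4 higher and 3 lower of 17 (23.5 and 17.6%, beside 3.44 and 6.69% of all genes), all 7 also against the IT subclasses alone. COL5A1 was low too in L5PT (12.8 and 24.4 CPM), L5NP (16.7 and 26.9 CPM), L6CT (13.7 and 32.8 CPM) and L6b (5.45 and 15.9 CPM). All of these lay below IT_D in animal 2. ADAMTS9, ADAMTS15 and COL4A1 reached 20 CPM only through IT_D, and without these 3 members 2 of 14 were higher and 3 lower (14.3 and 21.4%, beside 1.82 and 7.01% of all such genes). Of 24 growth factor genes 4 were higher and 2 lower (16.7 and 8.33%, beside 3.44 and 6.69% of all genes), and 3 of the 4 reached 20 CPM only through IT_D. Without such members 1 of 21 was higher and 2 were lower (4.76 and 9.52%), near the 1.82 and 7.01% of all such genes. The GDNF co-receptor GFRA1 (80.6, 38.99, 35.99 and 46.8 CPM against 6.35 and 5.36 CPM), the receptor TGFBR2 (19.2, 35.7, 19.9 and 20.1 CPM against 3.28 and 3.47 CPM) and the ligand PDGFA (121 and 103 CPM against 53.2 and 43.5 CPM) were among the higher. The ligand FGF10 (3.52 and 4.07 CPM against 24.3 and 24.9 CPM) was lower, but it did not pass against the IT subclasses alone.

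Solute carriers were near the share of all genes. Of 81 evaluated, 2 were higher (2.47%, beside 3.44% of all genes) and 5 lower (6.17%, beside 6.69%), with the anion exchanger SLC26A4 at 115, 172, 150.1 and 120.4 CPM against 25.1 and 23.3 CPM and the phosphate carrier SLC20A1 at 95.02 and 75.6 CPM against 32.5 and 33.9 CPM. Of 31 genes of vesicle release 3 were lower (9.68%, beside 6.69%), all of them synaptotagmins, namely SYT6, SYT9 and SYT17. SYT9 was at 1.76 and 5.08 CPM against 55.7 and 48.1 CPM. SYT6 and SYT17 had 0 UMIs in IT_D of animal 1, and SYT6 did not pass against the IT subclasses alone.

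**Figure D4:**
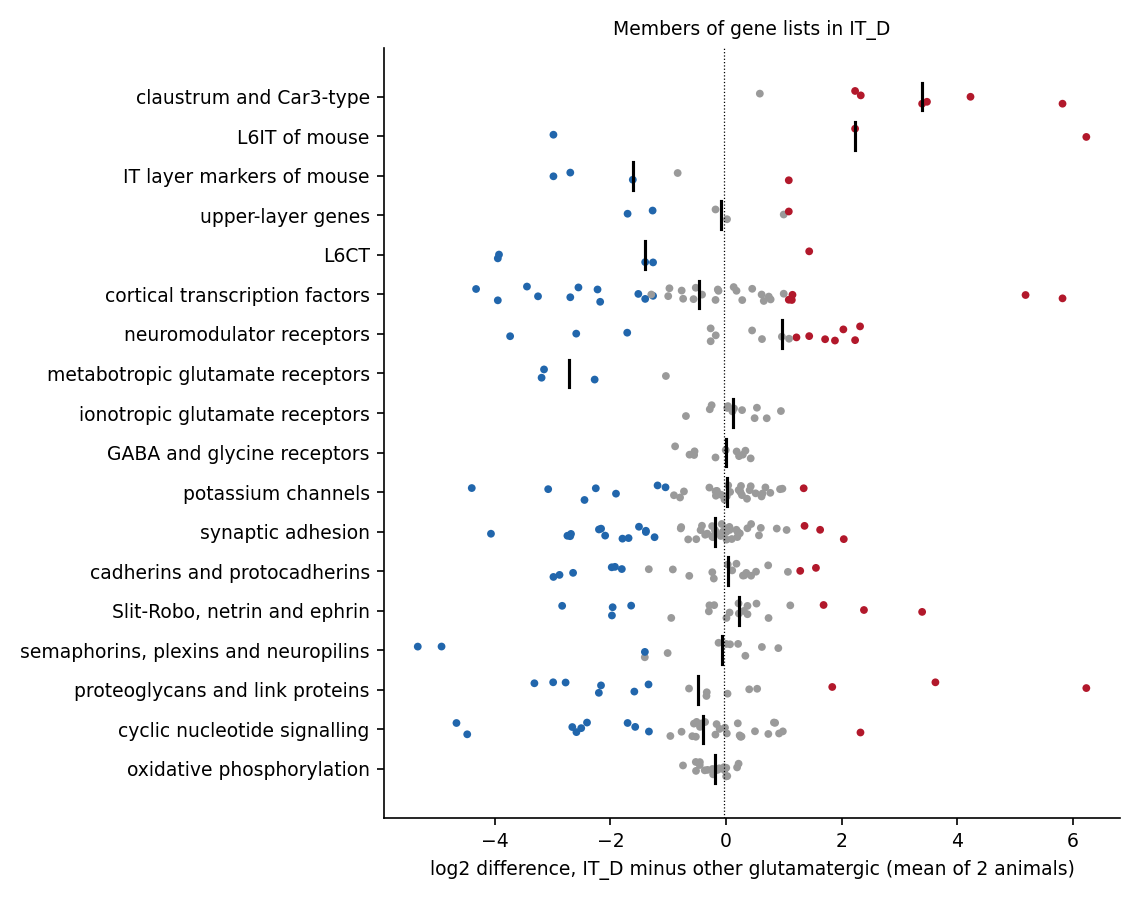
Log2 difference between IT_D and the other glutamatergic nuclei (horizontal axis, mean of 2 animals) for each evaluated member (point) of 18 gene lists (rows), higher in red, lower in blue, neither in grey, with a bar at the median of each list and a dotted line at the median of all genes. The claustrum and Car3-type list has its median at 3.39 (2.33 over the 3 members that had 20 CPM outside IT_D), the metabotropic glutamate receptors at -2.71 and the oxidative phosphorylation genes at -0.19.

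As a whole profile, IT_D correlated more with the other IT subclasses than with the remaining glutamatergic ones. The Spearman correlation of mean expression over 3000 variable genes was 0.78 and 0.83 with IT_A in animals 1 and 2, 0.75 and 0.82 with IT_C and 0.74 and 0.79 with IT_B. It was 0.72 and 0.76 with L5PT, 0.70 and 0.75 with L6CT, 0.66 and 0.71 with L5NP and 0.65 and 0.68 with L6b. The correlation of IT_D between the libraries of 1 animal was 0.85 and 0.94. With at most 58 nuclei drawn for every subclass and animal, the mean correlation with IT_A was 0.74 ± 0.01 (SD, n = 2), with IT_C 0.72 ± 0.01 and with IT_B 0.72 ± 0.01, so the IT subclasses differed little in their distance from IT_D. The other IT subclasses were themselves not nearest to IT_D, since with these equal numbers IT_A correlated at 0.79 with IT_B, 0.77 with IT_C and 0.76 with L5PT, and IT_C at 0.75 with L5PT, 0.74 with L6CT and 0.74 with L5NP. These correlations are across genes, which are not independent replicates.

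The spread of single genes over the IT_D nuclei was set against counting noise. For each gene the squared deviations of nuclei from their mean share of UMIs were divided by those that counting alone gives. The median of this ratio over 3966 genes with at least 20 UMIs in animal 1 and 100 in animal 2 was 1.20 and 1.23 in the 2 animals, and 47 genes exceeded 4 in both. The ratio grows with the level of a gene and was not computed for other subclasses, so it is no measure of how mixed IT_D is. Among the 47 were the neurotrimin gene NTM (9.77 and 16.2), SULF1 (7.56 and 8.43), TENM3 (8.06 and 9.07), CDH10 (5.33 and 13.2), PIEZO2 (4.51 and 5.15), CUX2 (4.16 and 4.13) and BDNF (4.05 and 6.38). CUX2 had 0 UMIs in 9 of 58 and in 37 of 315 nuclei.

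Because CUX2 was the given marker, the nuclei of each animal were split at their median CUX2 share of UMIs, a division chosen after the data were seen. The median was 392 CPM in animal 1 and 672 CPM in animal 2, and 9 of 58 and 57 of 315 nuclei lay within 20 percent of it, so the cut runs through a range of values. Of 4737 genes evaluated by the rule of size, 13 were higher in the CUX2-rich nuclei (0.274%) and 18 lower (0.38%) in both animals. KCNAB1, a beta subunit of potassium channels, was at 82.6 against 378 CPM (CUX2-rich against CUX2-poor nuclei) in animal 1 and 65.7 against 256 CPM in animal 2. The cadherin CDH10 was at 279 against 788 CPM and 298 against 1031 CPM, TENM3 at 568 against 1659.7 CPM and 505 against 1194 CPM, and GRPR at 13.8 against 61.2 CPM and 23.6 against 76.4 CPM. These 4 were lower where CUX2 was high. In the opposite direction, the sodium-calcium exchanger SLC24A4 was at 209.9 against 75.6 CPM and 426 against 169.8 CPM, the secreted protease TLL1 at 92.9 against 39.6 CPM and 362 against 150.4 CPM, and ZFPM2, a zinc-finger cofactor, at 289 against 108 CPM and 351 against 169.8 CPM. Of the genes that set IT_D apart, PIEZO2 was at 1707 against 1274 CPM and 1413 against 1376 CPM, NTNG2 at 819 against 655 CPM and 671 against 611 CPM and NR4A2 at 165 against 104 CPM and 193 against 166 CPM. SULF1 was at 148 against 230.4 CPM in animal 1 and 48.8 against 237 CPM in animal 2, and passed the fold only in the latter. ENTPD1 was at 51.6 against 18.001 CPM and 60.6 against 31.3 CPM. SERPINB2 was at 127 against 25.2 CPM and 70.2 against 137 CPM, which are opposite directions in the 2 animals.

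**Figure D5:**
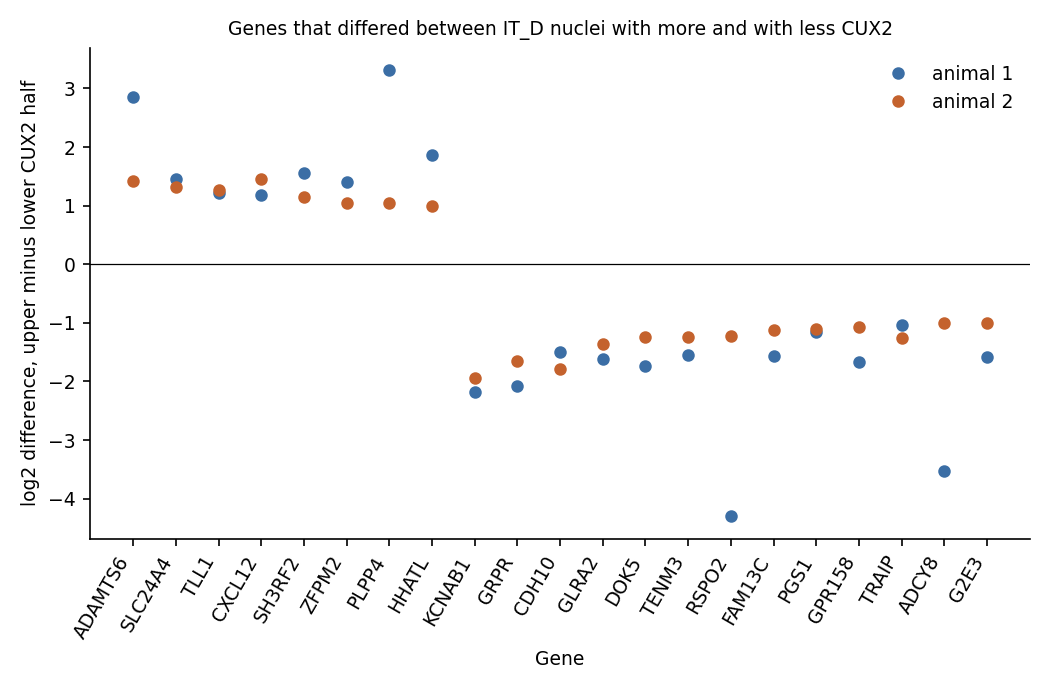
Log2 difference of CPM + 1 between CUX2-rich and CUX2-poor IT_D nuclei (vertical axis) for each gene with a symbol that passed the rule in both animals (horizontal axis), with 1 point per animal. KCNAB1, GRPR and CDH10 lie below 0 and ADAMTS6, SLC24A4 and TLL1 above 0 in both animals.

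Between the animals, IT_D sums differed for few genes. Of 3616 genes with at least 50 CPM in the higher animal, 54 were at least 2-fold higher in animal 2 with no overlap of libraries (1.49%) and 60 in animal 1 (1.66%). The largest with a symbol was FSTL5, a secreted follistatin-like protein, at 30.7, 9.75, 204 and 164 CPM in libraries 1A, 1B, 2A and 2B, which is 9.39-fold higher in animal 2. In the other glutamatergic nuclei FSTL5 was lower in animal 2, at 328 and 225 CPM in animals 1 and 2, so that IT_D of animal 1 stood far below them and IT_D of animal 2 near them. MEIS2 (15.4, 3.25, 44.4 and 55.96 CPM), TRHDE, a peptidase that degrades thyrotropin-releasing hormone (15.4, 6.50, 61.3 and 42.6 CPM) and ADAMTSL3 (19.2, 19.5, 107 and 71.2 CPM) were also higher in animal 2. MEIS2 and TRHDE are genes that were lower in IT_D than in other glutamatergic nuclei, and 8 of the 40 genes with a symbol that were higher in animal 2 were of this kind, where 5.56% of all genes with a symbol were lower. The summed GABAergic list also lay at 7.04 CPM in IT_D of animal 1 and 18.3 CPM in animal 2, and the astrocyte list at 329 and 465 CPM, beside 15.7 and 18.9 CPM and 269 and 313 CPM in the other glutamatergic nuclei, and their part in the differences was not tested.

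Higher in animal 1 were LTBP1, a protein that binds latent TGF-beta (138, 77.98, 45.9 and 23.1 CPM), SEZ6L (192, 273, 69.7 and 90.02 CPM), MCCC1 (69.1, 38.99, 18.4 and 18.9 CPM), the calcium-activated potassium channel KCNN3 (257, 367, 108 and 128 CPM) and LINGO2 (138, 146, 63.6 and 52.3 CPM). LTBP1 was raised in IT_D of both animals relative to other glutamatergic nuclei (4.78 and 4.33 CPM), in which it hardly differed. SEZ6L differed in the other glutamatergic nuclei in the same direction (237 and 106 CPM), as did 27 of the 29 genes with a symbol that were higher in animal 1, 3 of them at least 2-fold. For the 40 higher in animal 2 these counts were 29 and 1. The falls that marked IT_D were larger in animal 1, where the 412 lower genes had a median log2 difference of -2.03, beside -1.68 in animal 2, and 301 of the 412 were further from 0 in animal 1. The 212 higher genes had medians of 1.78 and 1.71. With 1 animal on each side these differences have no replicate check.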

How the data were processed

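The deposited files held, for each of 4 libraries, a matrix of UMI counts and a table with the authors' labels, quality call and Scrublet score. The authors aligned reads to the opossum genome ASM229v1 with Cell Ranger (6.1.1 in the submitters' processing notes, 7.1.0 in the matrix headers), counting introns, with an Ensembl gene set whose 3′ ends they had extended. Per the labels' tables, the doublet score was deposited as a fraction from Scrublet, computed by the authors. The deposited counts were not normalized. Gene names were those of the files, which gave 1 unique symbol to 11576 of 30800 features, and all other features kept their Ensembl identifiers.

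UMIs of the nuclei with a subclass were summed by subclass and animal in Python 3.11.15 with numpy 2.4.6 and scipy 1.17.1 and scaled to CPM. A gene was higher or lower at a 2-fold difference in both animals, with at least 20 CPM and 10 UMIs in the higher group and 10 UMIs that this level would give in the other group. Log2 differences were taken of CPM + 1, which understates those of low genes. A group with a count of 0 was given 3 UMIs for a bound on its fold. The subclass labels were drawn from the same counts, so no p-values were computed for IT_D against other nuclei. A two-sided Fisher's exact test compared the libraries of an animal, which came from 1 suspension, so that it compares those libraries only. Intervals are exact (Clopper-Pearson, 95%) and cover counting error only. For shares of nuclei with a UMI, nuclei were also thinned to 2000 UMIs. Doublet calls were kept in the main values and removed in an alternative. TMM scaling came from edgeR 4.0.16 in R 4.3.3.

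Genes were named by a rule, namely the 16 largest rises, the 10 largest falls and up to 15 genes highest among the 8 glutamatergic subclasses, ranked by the smaller of the 2 animals' log2 differences, then up to 4 of each gene list with the cell type markers, and the 5 largest differences each way between animals at 50 CPM or more. A few genes that the rule selects are not reported here, though counts include them. Some other members of the lists are named with their counts. The subclass, the gene lists and the rule were chosen with earlier results of these data known. The division by CUX2 and the count of nuclei that held 5 of the 16 genes were chosen after the values were seen.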

Additional observations from a re-analysis of the deposited data

How the results depend on the processing

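The counts of genes higher, lower and highest among 8 subclasses (212, 412 and 81) became 367, 629 and 144 at 1.5-fold, 111, 227 and 46 at 3-fold, and 116, 179 and 32 with nuclei thinned to 2000 UMIs, where fewer genes had enough UMIs. Against L5PT, L5NP, L6CT and L6b alone 321 genes were higher. With either animal left out they ranged from 282 to 352, 485 to 667 and 113 to 134, since the rule then asks for 1 animal, and the highest of each came without animal 2. The mean Spearman correlation with IT_A, 0.804, was 0.849 over all genes with at least 20 CPM, 0.867 as Pearson's r of log2(CPM + 1) and 0.744 with equal numbers of nuclei, and with 1 animal left out it ranged from 0.777 to 0.832. The share of nuclei with a CUX2 UMI was 86.4% and fell to 55.5% after thinning, and ranged from 84.5 to 88.3% with 1 animal left out. The share of IT nuclei ranged from 0.916 to 3.88% in the same way. TMM scaling, removal of doublet calls, equal numbers of IT_D nuclei, a rule over each of the 4 libraries and labels predicted from the other genes left the 3 counts within 1.5 times, as did leaving out the most abundant feature, an alternative chosen after seeing the data. The predicted labels were trained on the deposited ones and recovered 365 and 366 of the 373 members, so they could hardly move these counts. The 58 nuclei of animal 1 limit what could be seen, as 1 UMI of their sum is 1.76 CPM.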

Other observations

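Some barcodes without a subclass held several genes of IT_D. At least 5 of the 16 most raised genes had a UMI in 19 of 2013 such barcodes of animal 1 and 26 of 1781 of animal 2. In animal 1, 12 of them lay in GABAergic and 3 in non-neuronal clusters that were left out as doublets, 3 failed the quality call and 1 was in an ambiguous cluster. In animal 2 the doublet clusters held 7 and 10, and 9 failed the quality call. Of the labelled nuclei outside the glutamatergic class, Lamp5 interneurons reached this number most often, in 16 of 168 and 18 of 202 nuclei. They share PIEZO2, GRPR, TANC1 and, in fewer nuclei, NR2F2 with IT_D. After thinning to 2000 UMIs, 24 of 56 and 142 of 313 IT_D nuclei still held 5 or more, and 1 of 182 Lamp5 nuclei of animal 2.

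When labels were predicted for the glutamatergic nuclei from either set of a random split of the genes, 381 and 389 nuclei were called IT_D. Of the 373 deposited members 365 and 366 were among them. The predicted nuclei numbered 61 and 62 in animal 1 and 320 and 327 in animal 2, and since the deposited labels trained the prediction these counts follow from them.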
